A study of Petrolisthes cinctipes with 164 samples.

Results

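A set of 60 probes stood out by a low expression differential late in the recovery of porcelain crabs from heat stress. The differential is the log2 level of a heat stressed crab minus that of its control partner, averaged over the 2 arrays on which both were hybridized. For each probe, this differential was averaged over the pairs of 1 and 2 h (early), of 12 and 18 h (mid) and of 24 and 30 h (late). A probe was kept if the late mean was the lowest of these averages and at or below -0.4, if the early mean lay above the late mean times 0.5, and if the early and mid means lay below 0.25, with 6 probes left out by name. Of the 13818 probes, 404 met these limits, and the 60 with the lowest late minus early value were taken. The same limits turned round, for a late differential above the others, kept 56 probes. The 2 counts cannot be compared directly. Of the 404, 311 (77.0%) came from plates with the letter P, whose probes shifted together in some late pairs, as given below. The 404 also moved with the processing, and the turned-round count is given only for the main setting. Since the values at 1, 2, 12, 18, 24 and 30 h chose the probes, these values are given as a description and carry no test. The pairs of 0.5, 4 and 6 h were not used in the choice, and tests were run there.

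The crabs, *Petrolisthes cinctipes* from the Oregon coast, were either warmed from 11 to 30°C in 4 h (heat stressed) or kept at 11°C for that time (control), and both groups then shared an aquarium at 11°C. Samples were taken after 0.5, 1, 2, 4, 6, 12, 18, 24 and 30 h, with 5, 4, 5, 3, 4, 5, 5, 5 and 5 crabs of each treatment. In all there were 82 crabs, 41 of each treatment, and each crab was labelled once with Cy3 and once with Cy5, which gave 164 channels on 82 two-colour cDNA arrays. The labels give a number for each crab, so replicates were separate animals, but neither the tissue nor the age or sex of the crabs, and a lower level per cell and fewer cells of a type cannot be told apart in such samples.

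Porcelain crabs of this genus live under rocks between the tide marks, where a low tide on a hot day can warm the body within hours. Acute heat unfolds proteins, and animal cells answer first with chaperones, which refold or hold damaged proteins, and then with the machinery of protein breakdown and with slower changes in metabolism, membranes and growth. Transcript levels of stressed animals can therefore depart from those of controls long after the temperature has returned to its starting value. The files name a probe only by its place on a clone plate, such as Pc18Pf10, where 18 is the plate, P a letter whose meaning is not given, and f10 the well. No gene could be attached to the 60 probes, and no role or sequence is given for them here.

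Some arrays stood apart or went against a label. Over all probes, the differentials of the 2 arrays of a pair correlated between -0.47 and 0.76, and the correlation was below 0 in 8 of the 41 pairs, of which 24 h replicate 1 (r = -0.23) is 1 of the 10 late pairs. For 10 arrays the description gave the opposite treatment to the title, among them the second array of replicate 5 at 12, 18, 24 and 30 h. The treatment of the title was used. Under it, the differentials of the 2 arrays of replicate 5 had a correlation of -0.02 in the pair of 12 h, 0.63 in that of 18 h, 0.69 in that of 24 h and 0.62 in that of 30 h. In the other pairs with conflicting labels, where both arrays were affected, they correlated at 0.07 (4 h replicate 2), 0.03 (6 h replicate 3) and 0.76 (6 h replicate 4).

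The late differentials of the 60 probes ran from -2.01 for Pc18Pf10 to -0.41 for Pc23Pj21. The median differential over the 60 probes was -0.69 at 24 h and -0.64 at 30 h, where the medians over all probes were 0.01 at both. All 60 lay below 0 at both times, as the choice largely fixed. The pairs were less uniform. At 24 h the member median was -0.21, -0.80, -0.82, -0.90 and -0.78 in replicates 1 to 5, so that replicate 1 stood nearer 0 than the rest. At 30 h it was -0.69, 0.16, -0.51, -1.65 and -0.93, so that replicate 2 lay above 0 and replicate 4 lay far below the others. Of the 60 probes, 16 were below 0 in all 10 late pairs, 19 in 9 pairs, 16 in 8 pairs, 8 in 7 pairs and 1, Pc06Wm16, in 6 pairs. Without 30 h replicate 4, all 60 late differentials were still below 0, with a median of -0.57, and 53 were at or below -0.4. The other late pairs also took part in the choice.

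Before that, the trajectory was shallow. The median differential was -0.09 at 1 h and -0.06 at 2 h, -0.26 at 12 h and -0.43 at 18 h. Pairs at the same time point disagreed most at 2, 18 and 30 h, where the SD of the member median over pairs was 0.50, 0.44 and 0.66. At 2 h the member median was -0.48, -0.37, -0.11, 0.02 and 0.79 in replicates 1 to 5, which straddles 0. At 12 h it was -0.14, -0.24, -0.38, -0.29 and -0.33, below 0 in every pair. At 18 h it was -0.24, -0.47, -0.57, -0.90 and 0.29, so that replicate 5, 1 of the pairs with conflicting labels, was the only pair above 0.

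**Figure D1:**
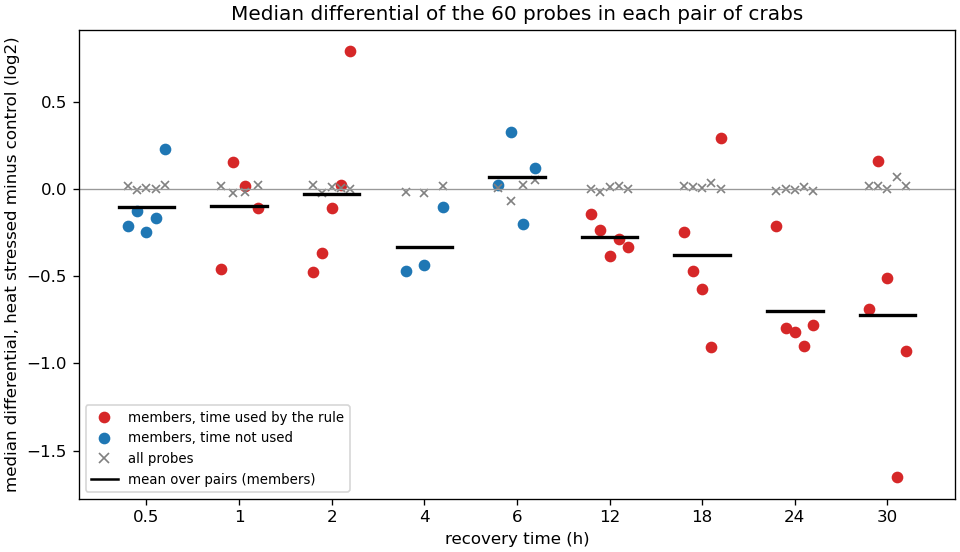
Median differential of the 60 probes (log2, heat stressed minus control) in each of the 41 pairs of crabs against recovery time in h, for times that the choice of probes used (red) and did not use (blue), with the median over all probes (grey crosses) and the mean over pairs (black line). The pairs of 24 h lie between -0.90 and -0.21 and those of 30 h between -1.65 and 0.16, while the crosses stay near 0.

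The low late differential went with a higher level in the control crabs for most of the probes. With each channel centred on its own median, the level of the 60 probes in control crabs was higher at 24 and 30 h than at 1 and 2 h by a median of 0.79 on the log2 scale, with 59 of 60 probes above 0, against a median of -0.11 over all probes and 40.7% of them above 0. In heat stressed crabs the same difference had a median of 0.20, with 39 of 60 probes above 0, against -0.10 over all probes. For 50 of the 60 probes the difference between early and late was larger in size in the control crabs. For 39 probes the late level was above the early level in both treatments, for 20 it was lower in the heat stressed and higher in the control crabs, and for 1, Pc13Wn05, it was lower in both. A description of the whole set as lowered late in recovery thus applies to the differential. The centred level itself was lower late than early in the heat stressed crabs for 21 of the 60 probes, Pc13Wn05 among them. Early and late crabs were different animals on different arrays, so that difference over time is not by itself an effect of heat stress. With the levels as deposited, 39 of the 60 were lower late than early in heat stressed crabs and 53 were higher late in controls. On that scale the median difference was 0.39 in control and -0.21 in heat stressed crabs, while that of all probes was -0.51 in both. A lower value in the heat stressed than in the control crabs followed from the choice by the late minus early differential. The sign in the heat stressed crabs and the count of probes lower there depended on the centring.

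The levels of single crabs show the same. At 24 h the median level of the 60 probes was between 2.46 and 2.94 log2 units above the channel median in the 5 control crabs and between 1.58 and 2.39 in the 5 heat stressed crabs, so the treatments did not overlap at that time. Since values of 24 and 30 h chose the probes, the choice itself favoured a gap in this direction. At 30 h it was between 1.98 and 3.20 in control and between 1.03 and 2.40 in heat stressed crabs, with overlap. At 1 h it was between 1.19 and 2.15 in control and between 1.23 and 1.76 in heat stressed crabs, where the heat stressed crabs lay within the range of the controls.

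**Figure D2:**
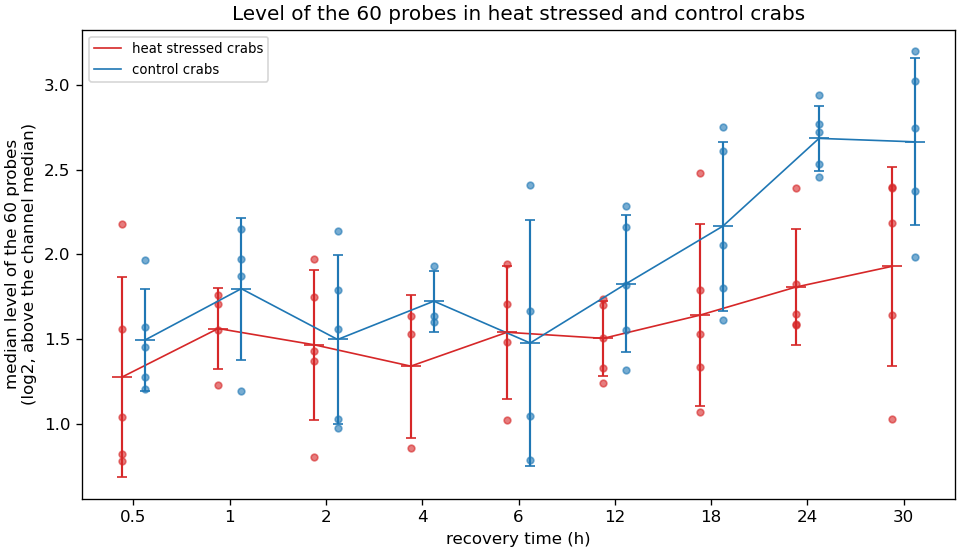
Median level of the 60 probes (log2 units above the median of the channel) in each crab against recovery time in h, for heat stressed (red) and control (blue) crabs, with the mean and SD over 3 to 5 crabs. The mean of the control crabs was 1.50 at 2 h and 2.68 at 24 h, and that of the heat stressed crabs was 1.47 and 1.81.

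Of the 12 probes with the lowest late minus early value, Pc18Pf10 came first. Its differential was -0.56, -2.07, -1.25, -2.17 and -1.98 in replicates 1 to 5 at 24 h. At 30 h it was -2.24, -0.81, -1.76, -4.60 and -2.65. It was below 0 in all 10 pairs, with a mean of -2.01 ± 1.12 (SD, n = 10 pairs). Its centred level was between -0.28 and 1.90 (median 1.06) in the 10 late heat stressed crabs and between 1.57 and 4.34 (median 2.78) in the 10 late controls, and 7 heat stressed crabs lay below the lowest control.

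Pc23Pc02 followed, with -0.08, -2.66, -0.82, -1.89 and -1.70 at 24 h and -1.73, -0.22, -1.02, -4.52 and -1.95 at 30 h. It too was below 0 in all 10 pairs, with a mean of -1.66 ± 1.29 (SD, n = 10). Pc25Cj03 was less variable apart from 2 pairs. Its values were 0.01, -1.78, -1.45, -1.81 and -1.78 at 24 h and -1.30, -1.17, -1.61, -4.06 and -1.57 at 30 h. Of its 10 late heat stressed crabs, 9 lay below the lowest control, as was also so for Pc27Gj03.

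Pc36Hf23, Pc23Pf16 and Pc19Pl21 had mean late differentials of -1.57 ± 1.39, -1.56 ± 1.41 and -1.58 ± 1.01 (SD, n = 10), and each was above 0 in 24 h replicate 1 and 30 h replicate 2 and below 0 in the other 8 pairs. Pc07Wi17 (-1.45 ± 1.14), Pc17Pi17 (-1.36 ± 0.67) and Pc16Ph11 (-1.20 ± 0.52) were below 0 in all 10 pairs, and the last had the smallest SD of the 12. Pc27Gj03 (-1.31 ± 0.83), Pc11Wp05 (-1.29 ± 0.92) and Pc01Ha12 (-1.20 ± 1.29) were below 0 in 9 pairs each. The exception was 24 h replicate 1 for Pc27Gj03 (0.10) and Pc11Wp05 (0.74), and 30 h replicate 2 for Pc01Ha12 (1.09). For none of the 60 probes, as for 0 of all 13818 (0.0%), did all 10 late heat stressed crabs lie below all 10 late controls.

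**Figure D3:**
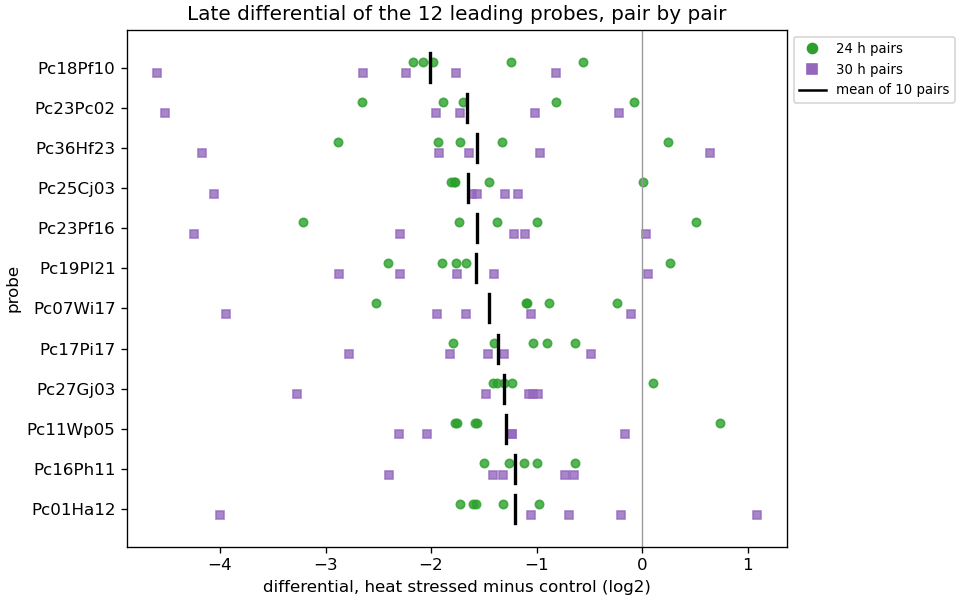
Differential (log2, heat stressed minus control) of the 12 leading probes in each of the 5 pairs of 24 h (green circles) and the 5 pairs of 30 h (purple squares), with the mean of the 10 pairs (black bar). The pair 30 h replicate 4 is the lowest square of every probe, between -4.60 and -2.30.

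For these 12 probes the level in the heat stressed crabs was itself lower late than early, with late minus early differences between -1.09 (Pc11Wp05) and -0.21 (Pc01Ha12) on the centred log2 scale. In the control crabs the differences were above 0, from 0.01 (Pc11Wp05) to 1.22 (Pc23Pc02). All 12 also had a mid differential well below 0, between -1.18 for Pc18Pf10 and -0.61 for Pc07Wi17. In 18 h replicate 4 the 12 lay between -2.85 and -1.72, and in 18 h replicate 5 between 0.94 and 2.49, so that these pairs ran opposite ways.

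The last probe inside the limit of 60 was Pc19Ph12, with a late minus early value of -0.425, and the first outside was Pc23Pe08, with -0.424. At the limit on the late differential, Pc17Pp06 (-0.4005) was just inside and Pc19Pe01 (-0.3997) just outside, and neither is among the 60. Pc19Ph12 and Pc23Pj21, the member with the late differential nearest 0, were below 0 in 8 and 9 of the 10 late pairs. They had mid differentials of 0.18 and 0.12, above 0, unlike the 12 leading probes.

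At 0.5 and 4 h, which the choice did not use, most of the 60 probes lay below 0, and at 6 h most lay above 0. At 0.5 h their median differential was -0.18, with 51 of 60 below 0, where 45.2% of all probes were below 0. The pairs gave -0.21, -0.13, -0.25, -0.17 and 0.23 in replicates 1 to 5, with replicate 5 apart. At 4 h the median was -0.36, with 56 of 60 below 0 against 52.8% of all probes, and the 3 pairs gave -0.47, -0.43 and -0.10. This value differed between the arrays, with -0.64 on the first arrays and -0.09 on the second, and it was 0.04 with the treatment of the descriptions, which is reversed for replicate 2. At 6 h the median was 0.12, with 19 of 60 below 0 against 47.4% of all probes, and the 4 pairs gave 0.02, 0.33, -0.20 and 0.12.

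None of these differentials passed the test. With limma on all 13818 probes (18 groups of crabs, adjusted p under 0.05), 0 of the 60 probes and 0 of all probes (0.0%) were called at 0.5, 4 or 6 h or for the mean of these times, with or without the pair of crabs as a block. At an unadjusted p under 0.05, 0 of 60 were reached at each time without the block, where the share of all probes was 0.138% at 0.5 h, 0.00724% at 4 h, 0.174% at 6 h and 0.232% for the mean. With the block, 1, 3, 5 and 1 of the 60 reached it, where the share of all probes was 3.52%, 2.4%, 4.86% and 3.95%. On the lower side alone, 0, 3, 2 and 1 of the 60 reached it with the block, against 1.41%, 1.06%, 2.86% and 1.71% of all probes, and 0 at each time without it, against 0.0%, 0.0%, 0.00724% and 0.0145%. The lowest adjusted p of the 60 was 1.0 without the block and 0.917 with it, for Pc23Pf16 at 6 h, where it was 1.48 ± 0.62 (SE) in limma with the block. The 4 pairs of Pc23Pf16 at 6 h were 1.12, 0.63, -0.08 and 4.23 in replicates 1 to 4, and replicates 3 and 4 had conflicting labels. Pc18Pf10 was at -1.20 ± 0.57 (SE) at 4 h in the limma fit with the block, with an adjusted p of 1.0. Its 3 pairs there were -1.12, -2.02 and -0.47, all below 0, and its 4 pairs at 6 h were 0.31, -0.17, -0.83 and 1.49.

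A late differential was also read for sets of probes chosen again without the crabs in which it was read. Each replicate number was left out in turn, 60 probes were chosen from the other replicates by the same limits, and their median differential was taken in the replicate left out. At 24 h it was 0.10, -0.63, -0.67, -0.65 and -0.74 for replicates 1 to 5, with 16, 51, 55, 60 and 55 of the 60 below 0. At 30 h it was -0.99, 0.41, -0.44, -0.72 and -0.73, with 59, 19, 37, 58 and 47 of 60 below 0. The share of all probes below 0 in these 10 pairs was 39.1% to 52.8%. Replicate 1 at 24 h and replicate 2 at 30 h thus ran against the other 8 pairs here too. The early side was less steady for replicate 1, whose 60 probes already had a median of -1.08 at 1 h and -1.34 at 2 h. Between 28 and 44 of the 60 probes were chosen again when a replicate was left out, so these values belong to sets that differ in part. Probes of a set are correlated, so the counts below 0 are not counts of separate events. Probes with the plate letter P shifted together in several late pairs, as given below. A left-out pair can share that shift, which was not removed here.

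The probes did not vary as a single unit. Over the 12 pairs of 0.5, 4 and 6 h, the correlation between the differentials of 2 members had a median of 0.19, from -0.80 to 1.00, and was 0.9 or more for 108 of 1770 member pairs (6.1%). Among 2000 probes drawn from all, the median was 0.02 and 0.256% of pairs reached 0.9. These correlations are descriptions over 12 points that share arrays. The most correlated members, Pc06Wn21 and Pc06Wp13 (r = 0.997), lie on 1 plate, and probes of the same gene cannot be told from probes of different genes here. Average linkage at a correlation of 0.7 placed 55 probes in 8 groups, numbered by size, and left 5 in none.

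The group of 12 led by Pc18Pf10 held 11 of the 12 leading probes and Pc13Wn05, from plates with the letters P (6), W (3), H, C and G (1 each). Its median late differential was -1.51 and its group median was below 0 in all 10 late pairs, from -3.61 in 30 h replicate 4 to -0.02 in 24 h replicate 1. Its mid median was -0.74. In single pairs the group lay far above 0, with 1.60 in 2 h replicate 5, 1.48 in 6 h replicate 4 and 1.48 in 18 h replicate 5. The probes most like Pc18Pf10 over the 12 pairs were Pc11Wp05 (r = 0.956) and Pc16Ph11 (r = 0.953), both in this group. Of the 15 probes most alike, 4 were not among the 60 and are named here after their values were seen. Their late differentials were -0.22 for Pc05Wh03, 0.08 for Pc23Pa16, 0.03 for Pc34Hp16 and 0.09 for Pc26Gj15, so likeness over these pairs did not go with a low late differential in each case. Within the group, the late minus early level had a median of -0.73 in heat stressed crabs and 0.63 in controls.

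The largest group held 17 probes, 12 with the letter P and 5 with W, among them Pc06Wm16, Pc06Wn21, Pc06Wp13, Pc19Ph12 and Pc23Pj21. Its correlations had a median of 0.93. Its median late differential was -0.55, but its mid median was 0.04 and its group median was below 0 in only 7 of the 10 late pairs. It lay at 0.44 in 30 h replicate 2, 0.11 in 30 h replicate 3 and 0.10 in 24 h replicate 1, and at -1.66 in 30 h replicate 4. Between 0.5 and 6 h it reached 2.51 in 6 h replicate 2 and -1.49 in 6 h replicate 4, so that pairs of 1 time point differed by more than any late differential of the group. In this group the level was above the early level late in recovery in both treatments, with a median difference of 0.53 in heat stressed and 0.97 in control crabs. Pc06Wm16, which had the highest level of the 60 (6.17 above the channel median at 0.5, 4 and 6 h), belongs here. Its late differential was 0.05, -0.73, 0.06, -0.96 and -0.53 at 24 h and -1.28, 0.02, 0.05, -1.84 and -0.96 at 30 h, with 4 of 10 pairs slightly above 0.

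A group of 6 held Pc01Ha12, the twelfth leading probe, Pc01Hp12, Pc05Wm16, Pc28Gl09, Pc12Wm09 and Pc17Pg08, which had the lowest level of the 60 (-0.51). Its median late differential was -0.84. At 24 h the group median was between -1.38 and -0.83 in the 5 pairs, a narrow range, while at 30 h it ran from -2.78 in replicate 4 to 0.89 in replicate 2. Pc17Pg08 itself had -1.19, -1.27, -1.28, -0.22 and -0.70 at 24 h and -0.04, 0.79, -0.44, -2.48 and -0.13 at 30 h, below 0 in 5 pairs of 24 h and 4 of 30 h.

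The other group of 6, with Pc06Wg16, Pc05Wk01, Pc04Nl02, Pc07Wl07, Pc12Wd13 and Pc06Wk20, carried the letter W in 5 cases and N in 1. It was above 0 at 0.5 h (median 0.32) and below 0 late (median -0.65), where 9 of 10 pairs were below 0. Its level in heat stressed crabs was higher late than early by 0.25 and in controls by 0.92.

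The 4 smallest groups were below 0 in 9 or 10 of the 10 late pairs. A group of 5 (Pc04Nc13, Pc35Hf10, Pc27Go14, Pc06Wm09, Pc21Gn11) had nearly the same mid and late medians, -0.57 in each, and was below 0 in 9 pairs. A group of 4 (Pc33Hk14, Pc33Hl23, Pc31Hd21, Pc35Hl03), all with the letter H, had group medians between -1.34 and -0.35 in the 10 late pairs, with 24 h replicate 1 (-0.46) and 30 h replicate 2 (-0.44) on the same side as the others. Groups of 3 (Pc18Pk11, Pc28Gg11, Pc28Gb14) and 2 (Pc17Pf22, Pc06Wj15) were also below 0 in all 10 late pairs, with late medians of -0.67 and -0.87. In the group of 4 the level was higher late than early by 0.96 in heat stressed and by 1.48 in control crabs, so these probes were at a higher level in both treatments, and less so after heat stress.

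**Figure D4:**
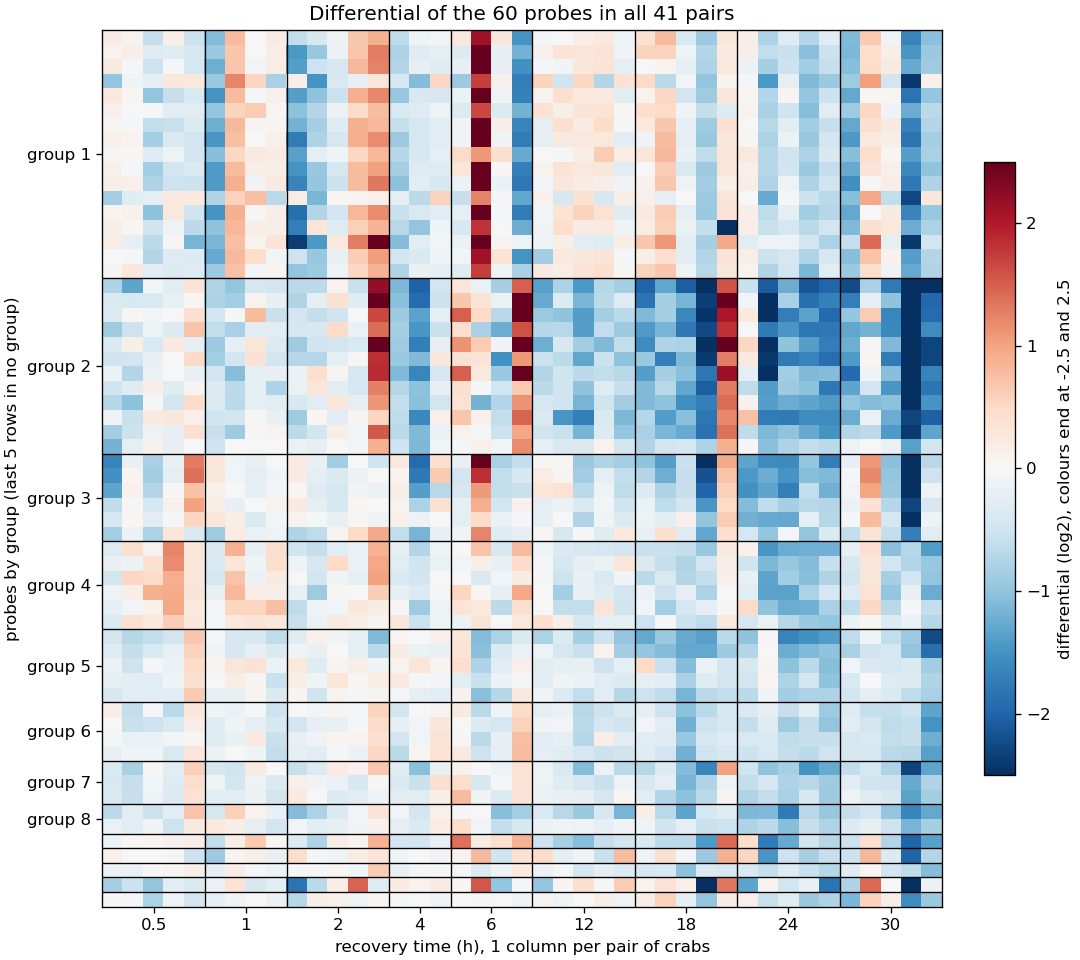
Differential (log2, blue below 0, red above 0, colours ending at -2.5 and 2.5) of the 60 probes, in rows by group, in all 41 pairs, in columns by recovery time in h. The 2 largest groups change sign between pairs of a time point, with 2.51 and -1.49 in 2 pairs of 6 h for the first. Groups 6, 7 and 8 are below 0 in all 10 pairs of 24 and 30 h, as is the median of group 2. The medians of groups 6, 7 and 8 also change sign between pairs of 0.5 h.

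The 5 probes in no group were Pc06Wk07, Pc19Pc23, Pc28Gf22, Pc15Pa09 and Pc06Wf08. The last, named after its values were seen, had the largest spread between crabs of the 60 and a difference of another order between times. Its centred level was between -1.26 and 1.47 in the 9 early heat stressed crabs and between 3.74 and 5.65 in the 10 late ones, without overlap. In the controls it was between -1.27 and 2.17 early and between 4.87 and 5.92 late. The late level was thus higher by 5.52 in heat stressed and by 5.95 in control crabs, and its late differential of -0.53 was small beside the difference between times that both treatments shared.

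Most of the probes shared a high level and a wide spread between crabs at times that the choice did not use. At 0.5, 4 and 6 h their level had a median of 1.50 log2 units above the channel median, at the 78.6th percentile of all probes, with 58 of 60 above the median of all probes. Their SD between crabs at these times had a median of 0.69, against 0.34 over all probes, and all 60 were above the median of all probes, from the 59.3rd percentile upward. The 2 crabs of a pair shared arrays, and after subtraction of the group means they correlated at a median of 0.75. This SD therefore includes what a pair or its arrays had in common, and is not a spread between animals alone. How far the choice of extreme differentials favoured such a level and spread was not tested. The Cy5 minus Cy3 difference, averaged over the 82 arrays, was largest for Pc07Wi17 (0.64). Since each crab was measured once in each dye, such a difference is the same in both crabs of a pair once the arrays are averaged.

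The plates were uneven. Of the 60 probes, 23 (38.3%) had the letter P, against 16.6% of all 13818 probes, and of the 404 probes within the limits 311 (77.0%) had it. The letter W held 19 members (31.7%, all probes 16.7%) and H held 8 (13.3%, all probes 36.1%). Members lay on 22 of 36 plates, with 9 on plate 6 and 6 on plate 23.

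All probes with the letter P, members or not, shifted together in some late pairs. Their median differential was -0.34 in 30 h replicate 4, -0.23 in 24 h replicate 2, -0.18 in 30 h replicate 1 and 0.22 in 30 h replicate 2, and their median late differential was -0.10, against 0.03 for all other probes. In 30 h replicate 4, the brightest 20% of the P probes had a median of -1.28, and the brightest 20% of the other probes one of 0.13. The 23 members with the letter P had a median of -2.28 in that pair, and the other 37 members one of -1.26. As a late pair, it took part in the choice of all these members.

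When each pair was centred on the median of all probes with the same letter, 181 probes were within the limits in place of 404. All 60 members then still had a late differential below 0, with a median of -0.61, and 55 were at or below -0.4. Staying below 0 was largely fixed, since members were chosen at or below -0.4 and the late medians were -0.10 for P and 0.03 for other letters. The centring takes away the median of a letter, and not the larger shift of the brightest P probes in 30 h replicate 4 (-1.28). The 23 P members were at a median of -0.49 after the centring and -0.60 before it, and the other 37 at -0.66 and -0.65. This alternative was chosen after the data were seen.

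**Figure D5:**
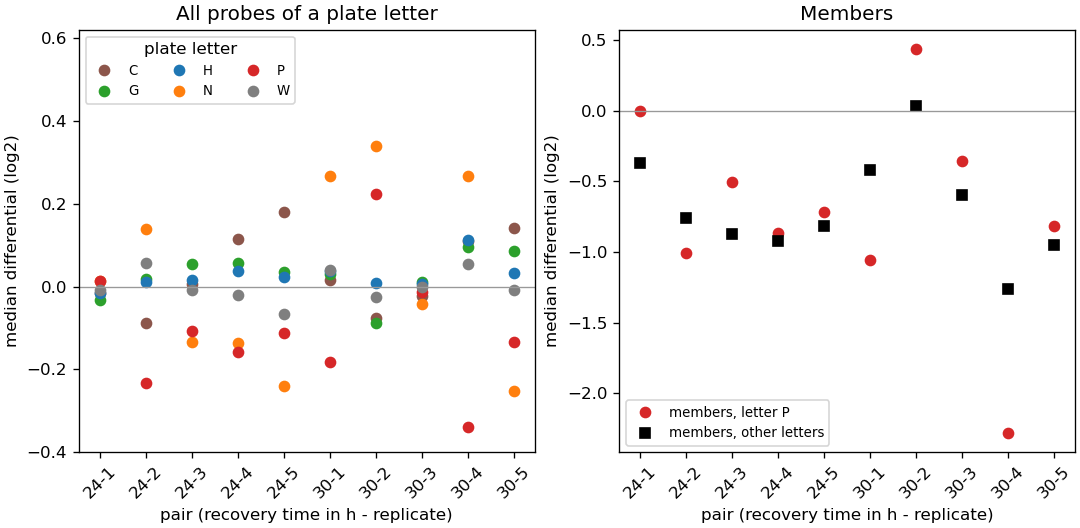
Median differential (log2, heat stressed minus control) in each of the 10 late pairs (recovery time in h, then replicate), for all probes by plate letter (left) and for the 23 members with the letter P and the 37 others (right). The P probes lie at -0.34 in 30 h replicate 4, and the other members are still at -1.26 there. The vertical scales differ.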

How the data were processed

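The deposited values are log2 intensities, with 1 value for every probe in each of 164 channels. How the authors corrected, normalized or centred them is not given in the sources used here. Precision is limited by how many pairs of crabs there are, 3 to 5 at each time point. The 2 arrays of a pair hold the same 2 crabs with the dyes exchanged, so they were averaged and counted once. Groups came from the titles. Heat stress was tested against control with limma 3.58.1 (R 4.3.3; 18 groups, moderated by eBayes, Benjamini-Hochberg over 13818 probes within a time point, adjusted p under 0.05), after a check on simulated data. A pair of crabs with 1 number was hybridized to the same arrays. After subtraction of the group means, both crabs correlated at 0.44 to 0.94 (median 0.75) in the 41 pairs, so the numbers pair the crabs. The fit with the replicate block changed no call. Probes were grouped by average linkage. Python 3.11.15, numpy 2.4.6, pandas 2.3.3 and scipy 1.17.1 were used otherwise.

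The probes, the lists and the tests were chosen with earlier results of these data known. The probes named are the 12 with the lowest late minus early value, those at both sides of the limit of 60, those at both ends of the late differential and of the level, and the most correlated members. Others are said to be named after their values were seen, or are listed as members of a group. Gene lists of pathways and tissues could not be applied, since no table pairs probes with genes here. Alternatives used medians over pairs, centred channels, single arrays, the treatment of the descriptions, other limits, fewer probes, other fits and fewer replicates. Added after the data were seen were the centring by letter, leaving out 30 h replicate 4 and leaving out 10 doubtful pairs. The doubtful pairs were the 8 whose arrays correlated below 0, with 0.5 h replicate 5 (r = 0.39) and 6 h replicate 1 (r = 0.26). Both of these were added by hand. Of the pairs with conflicting labels, only 12 h replicate 5 was among the doubtful pairs, and the others were kept.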

Additional observations from a re-analysis of the deposited data

Results flagged for a closer look

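In 44 groups of 4 or 5 pairs examined, 8 values stood far from the rest of their group, where chance gives about 1 in 20 separate groups. These groups share pairs of crabs and correlated probes, so the 8 values are not separate events and their count cannot be set against that rate. The median differential of the 60 probes was 0.2305 in 0.5 h replicate 5, where the other pairs lay between -0.25 and -0.13, and -0.2139 in 24 h replicate 1, where the others lay between -0.90 and -0.78. In the same pair of 24 h, Pc25Cj03 was at 0.0109 (others -1.81 to -1.45), Pc19Pl21 at 0.2624 (others -2.41 to -1.67), Pc27Gj03 at 0.1043 (others -1.42 to -1.23) and Pc11Wp05 at 0.7413 (others -1.77 to -1.57). The 2 arrays of that pair correlated at -0.23 over all probes. In 30 h replicate 4, Pc25Cj03 was at -4.0584 (others -1.61 to -1.17) and Pc27Gj03 at -3.2738 (others -1.48 to -0.98). The 2 arrays of that pair correlated at 0.48, and the member median was -1.26 on the first and -1.94 on the second.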

How the results depend on the processing

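The number of probes within the limits was 404, and it moved with several choices: 173 on the first arrays alone, 44 with the treatment of the descriptions, 138 with a late limit of -0.5 and 617 with -0.3, 181 with each pair centred within plate letter and 150 without 30 h replicate 4 (both added after the data were seen), and 86 to 603 with a replicate number left out, lowest without replicate 4 and next lowest without replicate 5 (115). Of the 60 members, 29, 34, 52, 60, 55 and 52 stayed within the limits in the first 6 of these, and 38 without replicate 4. The median differential of the 60 probes at 4 h was -0.6440 on the first arrays, -0.0855 on the second and 0.0432 with the treatment of the descriptions, and -0.47 to -0.24 with a replicate left out. At 6 h it was -0.0450 without replicate 2 and -0.0306 with medians over pairs, against 0.12 with all. The difference from early to late in control crabs was 0.3921 with the levels as deposited. The late differentials of the 18 named probes stayed below 0 under all alternatives run, which the choice on the late values of the same crabs favoured. The count of members called by limma was 0 in each of 13 alternatives per time point, the replicate block included. Of all 13818 probes, 0 were called in the alternatives not given here. Without the 10 doubtful pairs described above, 8, 0, 17 and 23 were called at 0.5, 4 and 6 h and for their mean. With the block as well, 60, 67, 84 and 145 were called, and the lowest adjusted p of a member in limma was 0.251. Without replicate 1, 12 were called at 6 h and 7 for the mean, and without replicate 5, 5 at 0.5 h and 4 for the mean. The causes of these moves were not tested. The tests rest on 3 to 5 pairs per time point, at which a differential of 1.48 was not called. That was Pc23Pf16 at 6 h, whose pairs ran from -0.08 to 4.23, the latter in replicate 4, where the labels conflict.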
